A study of Mus musculus with 10 samples.

Results

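The genes Ccl3, Ccl4, Ccl5 and Ccl22, which encode 4 secreted CC chemokines, were followed through activation and repeated division of mouse splenic B cells. They were chosen by symbol and are 4 of the 6610 genes in the deposited table, and all 4 were among the 4427 that passed the filter on low values. The cells came from C57BL/6 mice, an inbred strain, and no group carried a genetic change. The first group, naive, held resting cells with no activation. In Phase I, cells were pulsed with antibodies to IgM (the antigen receptor) and to CD40 (a receptor for T cell help) and sorted 48 h later into an undivided group, div0, and a divided group, div12. In Phase II, div12 cells stayed another 48 h in a low dose of anti-CD40, 0.12 µg/ml, and were sorted into cells that did not divide again, div12_48_u, and cells that did, div12_48_d. The Phase II cells had therefore also received the Phase I pulse. Each group had 2 libraries, and each Phase I replicate pooled 4 to 5 mice.

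Chemokines are small secreted proteins that guide migrating cells through G protein-coupled receptors. Ccl3 and Ccl4 are close relatives, Ccl3 and Ccl5 act on Ccr1, and all 3 are known to draw T cells, NK cells, monocytes and other leukocytes. Ccl22 acts on Ccr4, which is found on helper and regulatory T cells, and it is known to be made by B cells stimulated through CD40. Ccl3 and Ccl4 are known as early targets of the antigen receptor in B cells, while Ccl5 is best known from T cells, NK cells and macrophages.

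The genes sit at 2 places in the genome, which bears on how their levels are compared below. In GENCODE for GRCm38 all 4 are protein-coding genes of 3 exons. Ccl5 (chr11:83525778-83530518, minus strand), Ccl3 (chr11:83647844-83649355, minus strand) and Ccl4 (chr11:83662584-83664683, plus strand) share a stretch of chromosome 11, where 13229 bases separate Ccl3 from Ccl4 and 117326 bases separate Ccl5 from Ccl3. Ccl22 (chr8:94745590-94751699, plus strand) lies on chromosome 8. Promoters were matched by symbol for 2 of the 4, Ccl22 and Ccl3, which stand for the 2 places. The 250 bases before the RefSeq start (GRCm38.p6) are printed 5′ to 3′ on the strand of the gene, for Ccl22 from chr8:94745434-94745683 on the plus strand and for Ccl3 from chr11:83649379-83649628 on the minus strand. The RefSeq and GENCODE starts differ. The GENCODE start of Ccl22 (94745590) lies inside its window, so the end of that window falls within the gene as listed above. The Ccl3 window ends short of the GENCODE start (83649355). Capitals mark TATAA on either strand, the core letters of a TATA box.
Ccl22: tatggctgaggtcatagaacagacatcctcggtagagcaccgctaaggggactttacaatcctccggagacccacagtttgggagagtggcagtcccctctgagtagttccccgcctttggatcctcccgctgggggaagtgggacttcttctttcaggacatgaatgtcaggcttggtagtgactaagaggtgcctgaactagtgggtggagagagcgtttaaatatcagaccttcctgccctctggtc
Ccl3: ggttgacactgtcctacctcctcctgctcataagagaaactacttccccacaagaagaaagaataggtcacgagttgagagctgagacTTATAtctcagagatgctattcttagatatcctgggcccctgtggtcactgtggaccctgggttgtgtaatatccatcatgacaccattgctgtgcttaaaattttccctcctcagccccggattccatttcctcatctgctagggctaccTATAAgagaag
TATAA was found at position -11 of Ccl3, counted to its first base from the RefSeq start, and on the other strand at position -162. It was not found in the Ccl22 window. It occurs on either strand in 22.8% of all 32851 RefSeq promoter windows of this length. The kappa B consensus (present in 3.90% of those windows), the AP-1 letters TGANTCA (6.75%) and the STAT6 consensus (5.85%) were searched on both strands and matched neither window. These are descriptions of the letters in these windows, and the matches do not overlap each other.

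The values are TPM, a transcript abundance per unit length, and each library sums to 1000000 TPM. Each of the 4 genes is listed with 1 transcript, so no summing was needed. The depth of the libraries is unknown, so no counting interval can be given. A gene is said to have risen or fallen where its p from limma, adjusted by Benjamini-Hochberg over all 4427 genes, was below 0.05. Fold changes are differences of log2(TPM + 1) ± their SE, which understates changes of low genes. Phase I RNA came from 1000000 cells and Phase II RNA from 500000, so that phase, culture time, cell input and batch cannot be told apart. In bulk RNA, fewer cells of a type and less RNA per cell cannot be told apart either. B cell markers (8 genes in the table) summed to between 18272 and 29594 TPM in every library and Cd79a, a signalling chain of the antigen receptor, was the highest of them in each group. Their sum was highest in naive (28077 and 29594 TPM). Against naive 7 of the 8 fell in div12 and 6 in div12_48_d, beside 47.5% and 40.6% of all genes. In div12_48_d against div12_48_u 3 fell and 0 rose, beside 13.4% of all genes lower and 12.2% higher. The 2 naive libraries stood apart from each other, with 340 genes more than 2-fold apart, against 33 to 65 within the other groups. The naive libraries also held more RNA of several other cell types, which is set out in full after the results on the 4 genes.

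Ccl22 was low in resting cells and was the most abundant of the 4 RNAs in every activated library. It had 1.84 and 2.60 TPM in naive, 121 and 178 TPM in div0, 396 and 374 TPM in div12, 197 and 83.6 TPM in div12_48_u, and 988 and 463 TPM in div12_48_d. Every activated library lay above both naive libraries, and the divided group lay above the undivided one in each phase, with no overlap of libraries. Ccl22 rose by 5.53 ± 0.44 (log2, SE) in div0 against naive (adjusted p = 4.74e-05) and by 6.92 ± 0.44 in div12 against naive (adjusted p = 7.32e-06). In Phase II it rose by 2.39 ± 0.44 in div12_48_d against div12_48_u (adjusted p = 0.00692), a call that was lost without the first div12_48_d library (adjusted p = 0.0572).

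The Ccl22 difference between div12 and div0 was 1.39, with a 95% interval of 0.38 to 2.39, and did not pass the adjustment over all genes (adjusted p = 0.0825). With these 2 groups fitted alone it passed (adjusted p = 0.0162). From div12 onward the Phase II groups went different ways. Ccl22 fell by 1.57 ± 0.44 on the log2 scale in div12_48_u against div12 (adjusted p = 0.0207). That call was lost without either div12 library or without the second div12_48_u library (adjusted p up to 0.125). In div12_48_d the difference from div12 was 0.81, with an interval of -0.19 to 1.82 (adjusted p = 0.253). Ccl22 in div12_48_u was close in level to div0, where its mean was 141 ± 80.5 TPM in div12_48_u and 149 ± 40.2 TPM in div0 (SD, n = 2 each). The interval of that difference, -1.19 to 0.82, still allows changes of either sign. The replicates of Ccl22 spread more than most genes, and their log2 ratio exceeded that of 96.7% to 99.1% of genes in div0, div12_48_u and div12_48_d.

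**Figure D1:**
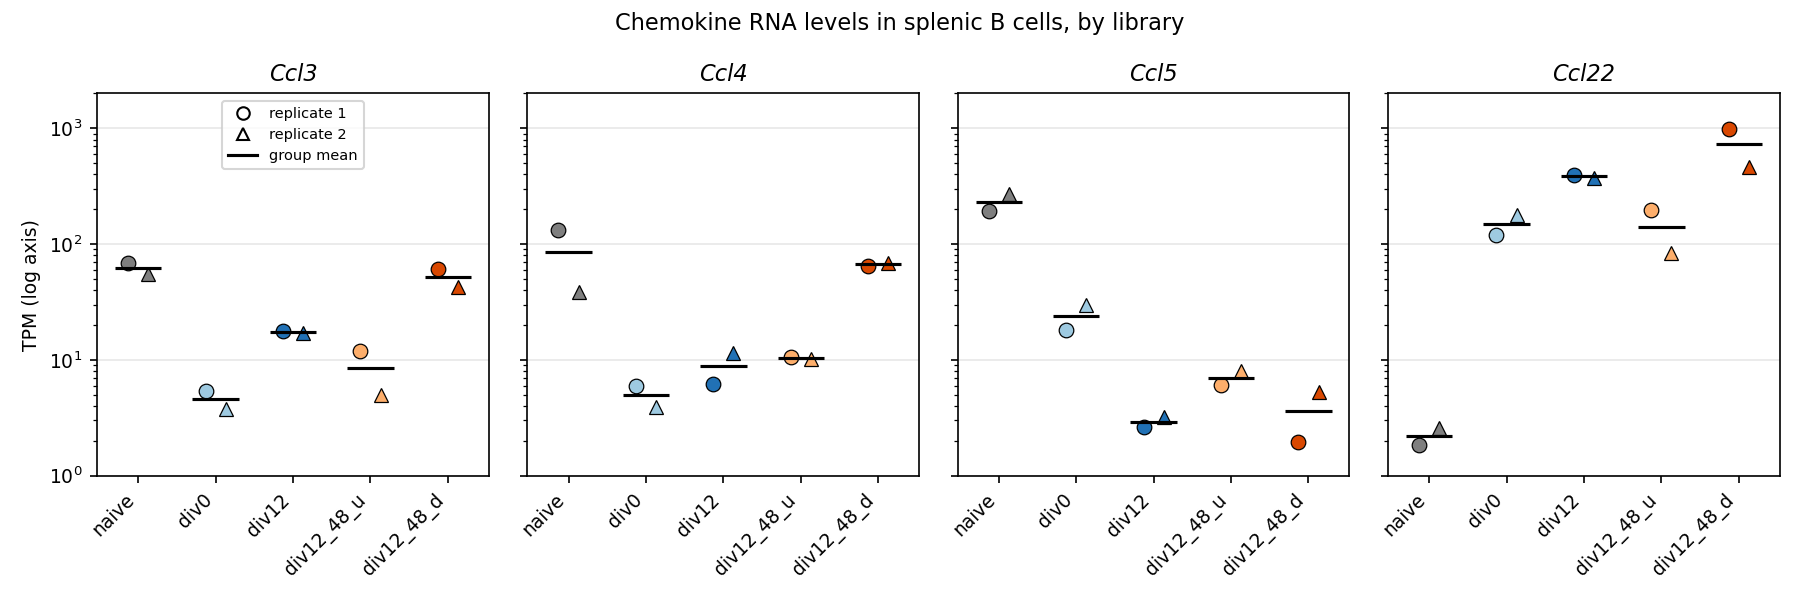
TPM on a log axis for each of the 4 genes in the 5 groups, with circles for replicate 1, triangles for replicate 2 and a line at the group mean. Ccl22 was lowest in naive libraries (1.84 and 2.60 TPM), Ccl5 was highest there (192 and 273 TPM), and Ccl3 and Ccl4 were high in naive and div12_48_d libraries and low between them.

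Ccl3 was high in naive libraries, low after the pulse, and high again in the cells that divided in Phase II. It had 68.7 and 55.2 TPM in naive, 5.36 and 3.80 TPM in div0, 17.9 and 17.2 TPM in div12, 11.9 and 4.94 TPM in div12_48_u, and 60.4 and 42.9 TPM in div12_48_d. The libraries of naive and div12_48_d overlapped, and both groups lay above all others. Naive libraries also held more RNA of other cell types. They had the highest sums of Egr1, Egr2, Egr3, Fos, Fosb, Jun and Jund (4349 and 3967 TPM). Most of these are immediate early genes, which respond to antigen receptor signalling among other stimuli. The part of the other cell types or of these genes in the naive levels of Ccl3 and Ccl4 was not tested. Ccl3 fell by 3.50 ± 0.34 on the log2 scale in div0 against naive (adjusted p = 1.13e-04), and rose by 2.57 ± 0.34 in div12_48_d against div12_48_u (adjusted p = 0.00216). The Phase II rise passed in every alternative fit and without any single library, with adjusted p between 0.00119 and 0.0240.

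Ccl3 was also higher in the divided cells of Phase I. It rose by 1.74 ± 0.34 in div12 against div0 (adjusted p = 0.0271), and its 4 libraries did not overlap. That call was lost without any one of those libraries (adjusted p between 0.0650 and 0.171) and with no filter on low genes (adjusted p = 0.0534). Relative to the div12 cells from which both Phase II groups came, Ccl3 fell by 1.08 ± 0.34 on the log2 scale in div12_48_u (adjusted p = 0.0343) and rose by 1.49 ± 0.34 in div12_48_d (adjusted p = 0.0226). The fall was lost without either div12 library or the second div12_48_u library, and the rise without any one of its 4 libraries, with adjusted p up to 0.173 for the fall and 0.108 for the rise. In the dividing Phase II cells against resting cells the difference was -0.27, with an interval of -1.05 to 0.51 (adjusted p = 0.513).

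Ccl4 followed Ccl3 in most groups, with a wider spread in naive libraries. It had 132 and 38.7 TPM in naive, 5.99 and 3.96 TPM in div0, 6.15 and 11.4 TPM in div12, 10.5 and 10.2 TPM in div12_48_u, and 65.3 and 69.3 TPM in div12_48_d. The first naive library was the highest of all and the second lay below both div12_48_d libraries, a gap within naive that exceeded that of 97.7% of genes. Ccl4 fell by 3.63 ± 0.50 on the log2 scale in div0 against naive (adjusted p = 5.97e-04), and rose by 2.59 ± 0.50 in div12_48_d against div12_48_u (adjusted p = 0.00800) and by 2.86 ± 0.50 in div12_48_d against div12 (adjusted p = 0.00716). Both rises were lost without 1 div12_48_d library, the call against div12_48_u without the first (adjusted p = 0.0567) and the call against div12 without the second (adjusted p = 0.0585).

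No change of Ccl4 with division was called in Phase I. The difference of div12 from div0 was 0.68, with an interval of -0.46 to 1.82 (adjusted p = 0.423). In div12_48_u against div12 it was 0.26, from -0.87 to 1.40 (adjusted p = 0.713). In div12_48_u against div0 it was 0.94, from -0.19 to 2.08 (adjusted p = 0.236), and was called without either naive library (adjusted p of 0.0349 and 0.0343) and with these 2 groups fitted alone (adjusted p = 0.0169). In div12_48_d against naive the difference of -0.09 (interval -1.23 to 1.05, adjusted p = 0.884) hung on which naive library was kept. Without the first naive library it was 0.78 (adjusted p = 0.0668), and without the second it was -0.96 and was called (adjusted p = 0.0313).

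Ccl5 was highest in naive libraries and lowest in cells that had divided. It had 192 and 273 TPM in naive, 18.0 and 29.7 TPM in div0, 2.64 and 3.19 TPM in div12, 6.10 and 7.97 TPM in div12_48_u, and 1.94 and 5.27 TPM in div12_48_d. The naive libraries lay above all others, the div0 libraries came next without overlap, and the 3 groups of divided origin stayed below 10 TPM. NK cell markers also summed to 114 and 162 TPM in naive and to between 4.01 and 7.46 TPM in the other libraries. Macrophage markers were highest in naive too. The part of such cells in the Ccl5 levels was not tested. Ccl5 fell by 3.25 ± 0.37 on the log2 scale in div0 against naive (adjusted p = 2.51e-04), fell by 5.88 ± 0.37 in div12 against naive (adjusted p = 7.23e-06), and fell by 2.63 ± 0.37 in div12 against div0 (adjusted p = 0.0138). The last call was lost without either div0 library or the second div12 library (adjusted p between 0.0777 and 0.147).

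In Phase II, Ccl5 took the opposite sign to the other genes, without a call. The difference of div12_48_d from div12_48_u was -0.89, with an interval of -1.74 to -0.04 (adjusted p = 0.115). It was called without the second div12_48_d library (adjusted p = 0.0283). In div12_48_u against div12 it was 1.03 (interval 0.18 to 1.88, adjusted p = 0.0543), and this value passed the threshold without any 1 library of naive or div12_48_d (adjusted p between 0.0231 and 0.0440). It also passed in several alternative fits, with an adjusted p of 0.0488 at a pseudocount of 0.1, 0.0454 with a filter at 5 TPM, 0.0446 without the naive group and 0.0112 with the 2 groups fitted alone. In div12_48_d against div12 it was 0.14 (interval -0.71 to 0.99, adjusted p = 0.860). Against div0, Ccl5 fell by 1.60 ± 0.37 on the log2 scale in div12_48_u (adjusted p = 0.0238) and fell by 2.49 ± 0.37 in div12_48_d (adjusted p = 0.00300). The first of these calls was lost with no filter and without the second div0 or either div12_48_u library (adjusted p up to 0.190).

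The order of the group means shows which neighbouring levels were separated. For Ccl3 the order from high to low was naive, div12_48_d, div12, div12_48_u and div0, in which naive and div12_48_d did not differ past the threshold, nor did div12_48_u and div0 (adjusted p = 0.224, but 0.0465 without the second div12_48_u library). For Ccl4 the order was naive, div12_48_d, div12_48_u, div12 and div0, and the only separated neighbours were div12_48_d and div12_48_u. For Ccl5 it was naive, div0, div12_48_u, div12_48_d and div12, with naive apart from div0 and div0 apart from div12_48_u. For Ccl22 it was div12_48_d, div12, div0, div12_48_u and naive, and the only separated neighbours were div12_48_u and naive (5.34 ± 0.44, adjusted p = 6.72e-05).

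All 4 chemokines were called in div0 against naive, a comparison in which most genes were called. In div0 against naive 1 of the 4 rose and 3 fell, where 54.9% of all tested genes were called, 15.4% higher and 39.6% lower. In div12 against naive 1 rose and 3 fell as well, against 66.9% of all genes called, 19.4% higher and 47.5% lower. In div12_48_u against naive the same counts, 1 risen and 3 fallen, stood beside 42.5% of genes called, 15.2% higher and 27.2% lower. In div12_48_d against naive 1 rose, 1 fell and 2 were not called, beside 62.4% of genes called, 21.8% higher and 40.6% lower. Ccl5 and Ccl22 were the pair called in all 4 comparisons and Ccl3 and Ccl4 the pair not called in the last. Of all called genes, 28.0% were higher in div0 as deposited, 49.2% under median-ratio scaling and 55.5% under quantile normalization, and the shares for div12 were 29.0%, 48.8% and 53.2%. For div12_48_u they were 35.9%, 51.7% and 59.9%, and for div12_48_d 34.9%, 50.5% and 52.5%. Neither scaling changed a call of the 4 genes against naive. These comparisons share the naive libraries, and their values are set side by side for that reason only. The median change of all genes was -0.24 in div0 and -0.35 in div12 against naive, and -0.11 in div12_48_u and -0.21 in div12_48_d, against called changes of the 4 genes that were all larger in size.

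The comparisons of divided with undivided cells called fewer genes. In div12 against div0 1 of the 4 rose (Ccl3), 1 fell (Ccl5) and 2 were not called, and 8.76% of all genes (388) were called, 3.68% higher and 5.08% lower. No gene was called there without either div0 library or the second div12 library. In div12_48_d against div12_48_u 3 rose and none fell, and 25.6% of all genes were called, 12.2% higher and 13.4% lower. Of the called genes, 42.0% were higher in div12 as deposited, 63.8% under median-ratio scaling and 52.4% under quantile normalization, and 47.6%, 57.6% and 49.2% in div12_48_d. The difference between the Phase II and the Phase I division effect was tested directly. It was 0.82 for Ccl3 (interval -0.28 to 1.93), 1.91 for Ccl4 (0.31 to 3.52), 1.73 for Ccl5 (0.53 to 2.94) and 1.00 for Ccl22 (-0.42 to 2.42), with adjusted p of 0.674, 0.377, 0.277 and 0.705. In that test limma called 0 of 4427 genes, with 438 at an unadjusted p under 0.05, so the 2 division effects were not shown to differ for any of the 4.

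Phase II cells were also set against their Phase I counterparts. In div12_48_u against div12 0 of the 4 rose and 2 fell, beside 41.3% of genes called, 27.7% higher and 13.6% lower. In div12_48_d against div12 2 rose and 0 fell, beside 15.9% called, 11.9% higher and 4.09% lower. In div12_48_u against div0 0 rose and 1 fell, beside 15.4% called, 10.2% higher and 5.20% lower. In div12_48_d against div0 3 rose and 1 fell, beside 18.5% called, 11.5% higher and 6.96% lower. The higher share of calls in these 4 comparisons, between 62.3% and 74.4% as deposited, was between 46.2% and 55.7% under median-ratio scaling and between 48.9% and 51.2% under quantile normalization. Ccl3 (3.23 ± 0.34), Ccl4 (3.54 ± 0.50) and Ccl22 (2.20 ± 0.44) were the 3 that rose there, with adjusted p of 5.90e-04, 0.00241 and 0.0103, and the Ccl22 call was lost without the first div0 or the first div12_48_d library (adjusted p of 0.0842 and 0.0686).

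**Figure D2:**
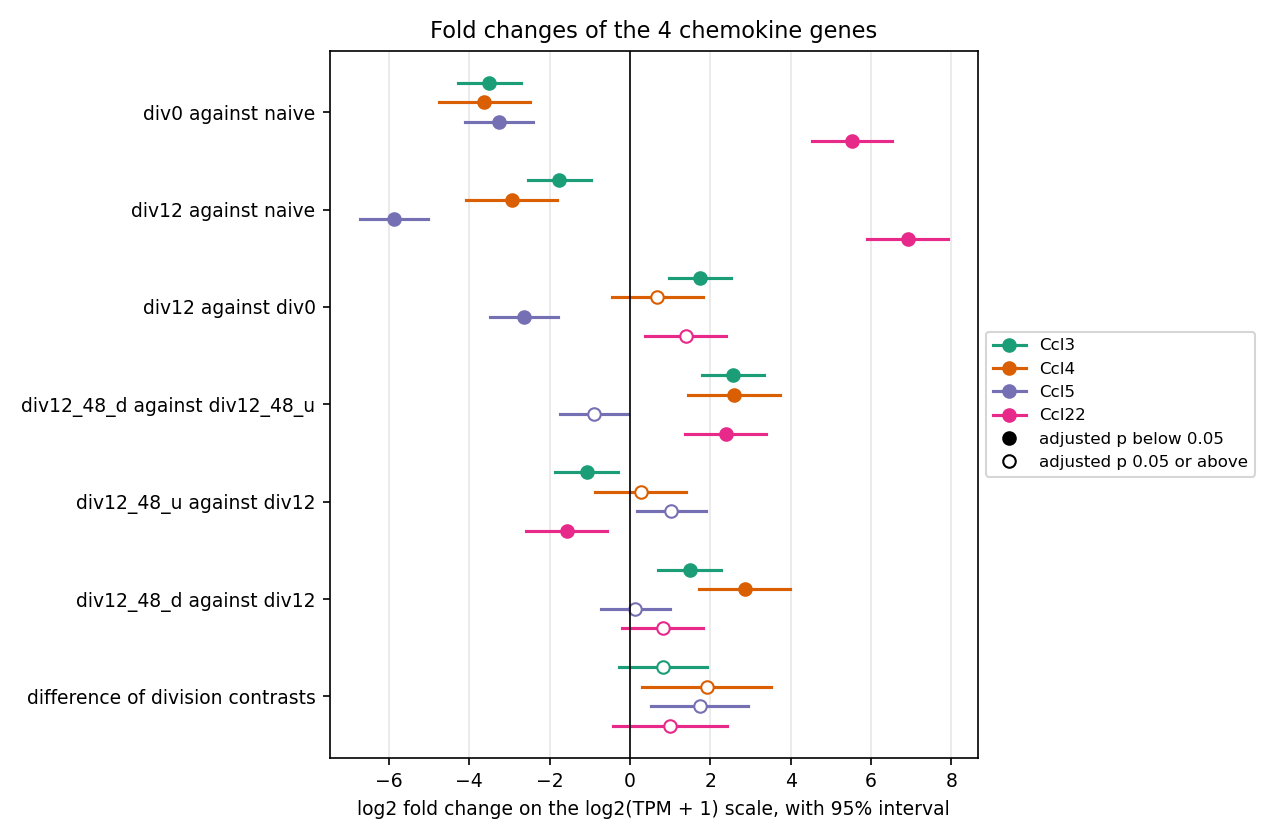
Log2 fold changes of the 4 genes with their 95% intervals, from limma on log2(TPM + 1), for 6 comparisons of groups and for the difference between the Phase II and Phase I division effects. Filled points have an adjusted p under 0.05. Ccl3, Ccl4 and Ccl22 lie right of 0 with filled points in div12_48_d against div12_48_u, and no point is filled in the difference.

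Resting and activated cells held a different mixture of the 4 RNAs. Their summed TPM was 395 and 369 in naive, 150 and 215 in div0, 423 and 406 in div12, 226 and 107 in div12_48_u, and 1116 and 581 in div12_48_d. Naive and div12 libraries thus held similar sums, and both div12_48_d libraries held the highest. Ccl5 made up 48.7% and 73.9% of the sum in naive libraries and at most 13.8% in any other. Ccl22 made up 0.466% and 0.705% in naive libraries and between 78.4% and 93.7% in the others. The ratio of Ccl4 to Ccl3 was 1.92 and 0.702 in naive, 1.12 and 1.04 in div0, 0.344 and 0.666 in div12, 0.880 and 2.05 in div12_48_u, and 1.08 and 1.61 in div12_48_d. It was lowest in the div12 libraries and differed most between replicates in naive and div12_48_u. These are shares of RNA per length and not of protein.

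**Figure D3:**
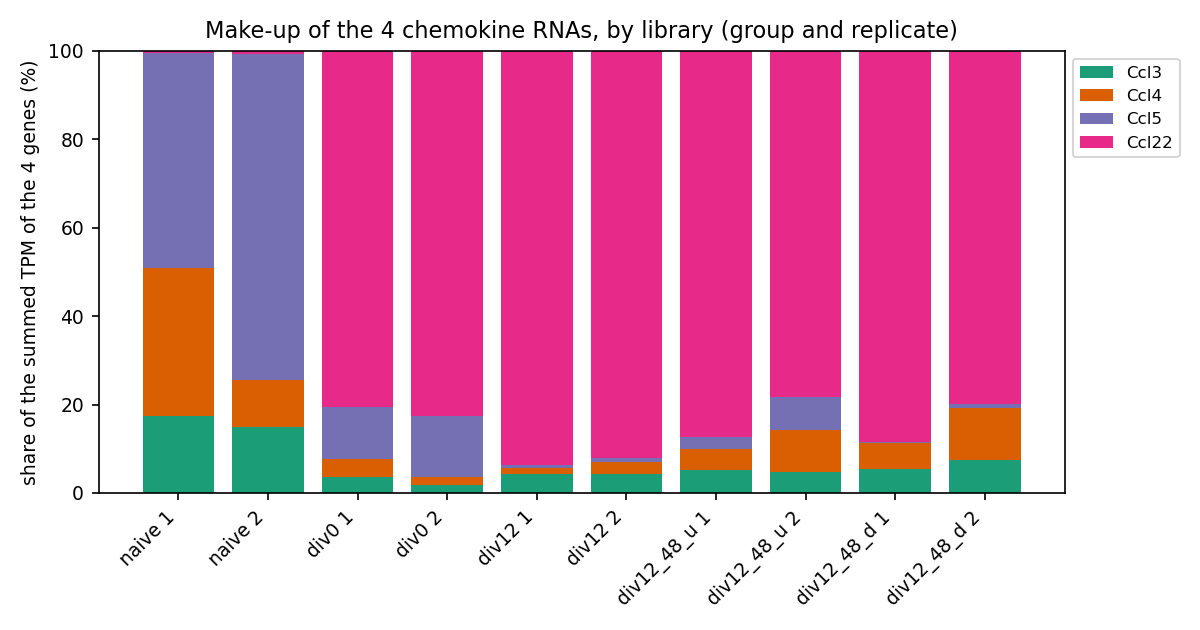
Share of the summed TPM of the 4 genes taken by each, in percent, for each of the 10 libraries by group and replicate. Ccl5 takes 48.7% and 73.9% of the bars of the naive libraries, and Ccl22 takes 78.4% to 93.7% of all other bars.

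Over the 10 libraries, on log2(TPM + 1), the genes fell into a similar pair and an opposite pair. Ccl3 and Ccl4, the neighbours on chromosome 11, had a Pearson r of 0.90 and a Spearman rho of 0.87. Ccl5 and Ccl22 had an r of -0.95 and a rho of -0.90, and r for the other pairs lay between -0.37 and 0.32. These are descriptions over 10 libraries, which come in 5 groups of 2 and are not independent points. Ccl3 ranked 5 of 3395 candidate genes by likeness to Ccl4, and Ccl4 ranked 9 by likeness to Ccl3.

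The genes most like each of the 4 were found by Pearson r over the same 10 libraries. For Ccl3 they included Stau2 (0.94), which encodes an RNA-binding protein, the small GTPase Arf1 (0.93), the glycosyltransferase Galnt7 (0.92), and the ectonucleotidase Entpd1 (0.92). For Ccl4 they were the inhibitory receptor Ctla4 (0.96), the repressor Gfi1 (0.92), Rgcc (0.91), the small GTPase Rab10 (0.91) and Ccl3. Ctla4 averaged 15.6 TPM in div12_48_d and 2.19 TPM in div12_48_u, with 22.4 TPM in naive.

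For Ccl5 they were the interferon-regulated transcription factor Irf1 (0.99), Psd3 (0.98), the phosphodiesterase Pde2a (0.98), the membrane protein Myof (0.98) and the neonatal Fc receptor Fcgrt (0.98). Irf1 averaged 363 TPM in naive and 121 to 185 TPM in the other groups, a far narrower range than that of Ccl5. For Ccl22 they included the ATPase Vcp (0.99), Lxn (0.99), the cell cycle kinase Cdk4 (0.99) and the adhesion protein Amigo2 (0.98). Amigo2 averaged 366 TPM in div12_48_d and 198 TPM in div12_48_u, and 230 TPM in div12 and 151 TPM in div0, with 19.9 TPM in naive. By Spearman rho Vcp stayed at rank 1 for Ccl22 and Stau2 at rank 1 for Ccl3, while Ctla4 moved to rank 46 for Ccl4.

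The receptors of the 4 ligands differed from each other in their course. Of 5 receptors listed, 4 were in the table and 3 were tested. Ccr1, which binds Ccl3 and Ccl5, had 15.9 and 14.6 TPM in naive, 84.9 and 77.4 TPM in div0, 93.0 and 124 TPM in div12, 178 and 174 TPM in div12_48_u, and 104 and 97.6 TPM in div12_48_d. It rose in every activated group against naive, by 2.34 ± 0.14 in div0 (adjusted p = 1.24e-05). In Phase II it moved against its ligand Ccl3, falling by 0.80 ± 0.14 on the log2 scale in div12_48_d against div12_48_u (adjusted p = 0.00495).

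Ccr4, the receptor of Ccl22, was low in every library, between 0.193 and 3.13 TPM, and its difference in div12_48_d against div12_48_u was 0.66 ± 0.32 (adjusted p = 0.163). Ackr2, a decoy receptor that takes up inflammatory CC chemokines, had 42.5 and 56.7 TPM in div12_48_d against 20.3 and 17.2 TPM in div12_48_u. It rose by 1.35 ± 0.19 there (adjusted p = 0.00260). Ackr1, an atypical chemokine receptor of blood vessels and red cells, did not exceed 1.60 TPM and was not tested.

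**Figure D4:**
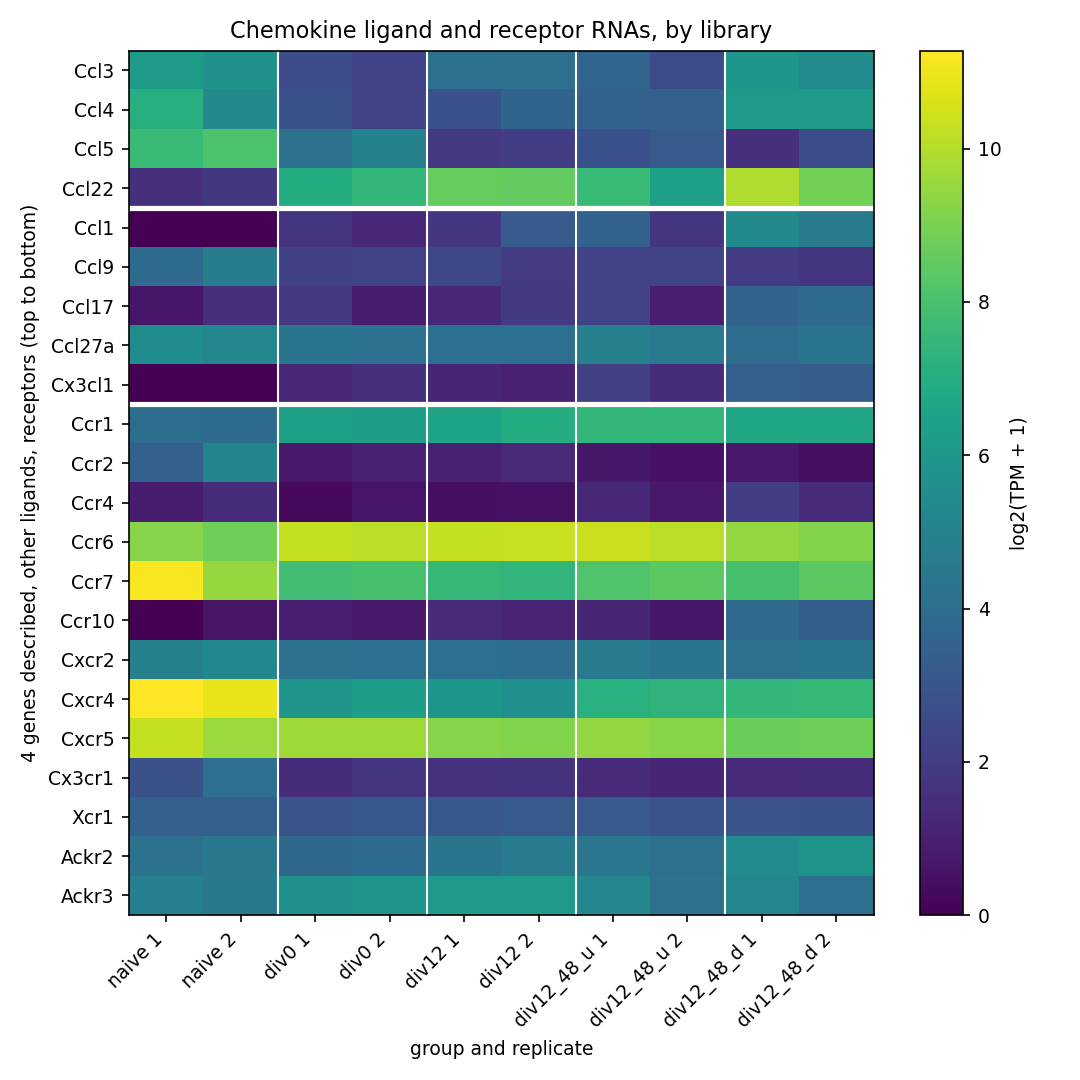
Heatmap of log2(TPM + 1) for the 4 genes, 5 other chemokine ligands and 13 chemokine receptors (top to bottom, separated by white lines) in the 10 libraries by group and replicate. Ccl22 is dark in naive libraries and bright in all others, Ccl1, Ccl17 and Cx3cl1 are brightest in div12_48_d libraries, and Ccr4 is dark throughout.

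Few other chemokine ligands were measurable. Of 33 others listed, 24 were in the table and 12 were tested. In div12_48_d against div12_48_u 3 of the 12 rose and 1 fell, beside 12.2% of all genes higher and 13.4% lower. Their median change was 0.01 against -0.08 for all genes. The 3 ligands that rose were Ccl1, Ccl17 and Cx3cl1. Ccl1, the ligand of Ccr8, had 39.4 and 23.2 TPM in div12_48_d against 10.5 and 2.39 TPM in div12_48_u (2.32 ± 0.61, adjusted p = 0.0264). Ccl17, which shares the receptor Ccr4 with Ccl22, had 11.0 and 14.3 TPM in div12_48_d against 3.85 and 0.931 TPM in div12_48_u (2.15 ± 0.50, adjusted p = 0.0175). Both calls were lost without the second div12_48_u library or without either div12_48_d library (adjusted p up to 0.172), and that of Ccl1 with no filter (adjusted p = 0.0540). Ccl27a, a ligand of Ccr10, was the 1 that fell (-0.59 ± 0.17, adjusted p = 0.0362), and this call was lost with its most abundant transcript alone and in several other fits (adjusted p up to 0.312).

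In div0 against naive 1 of the 12 other ligands rose and 8 fell as deposited, beside 15.4% of all genes higher and 39.6% lower. The median was -0.97 against -0.24 for all genes, and 6 of the 12 fell under median-ratio scaling and under quantile normalization. Ccl9, a neighbour of Ccl5 and Ccl3 and a ligand of Ccr1, fell by 2.14 ± 0.28 on the log2 scale (adjusted p = 4.96e-04), with means of 3.70 TPM in div0 and 20.6 TPM in naive. In div12 against div0 0 rose and 1 fell, beside 3.68% of all genes higher and 5.08% lower.

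Of 17 tested chemokine receptors, 3 rose and 3 fell in div12_48_d against div12_48_u, shares near those of all genes (12.2% higher and 13.4% lower). Beside Ackr2 the most changed was Ccr10, a receptor of skin and mucosal homing, with 14.1 and 9.56 TPM in div12_48_d against 1.32 and 0.668 TPM in div12_48_u (2.69 ± 0.28, adjusted p = 8.75e-04). Ccr6 fell by 0.93 ± 0.16 on the log2 scale (adjusted p = 0.00585). In div0 against naive 3 rose and 10 fell, beside 15.4% of all genes higher and 39.6% lower, among them the homing receptors Cxcr4 (-5.02 ± 0.17) and Ccr7 (-2.42 ± 0.43). Under median-ratio scaling 3 rose and 8 fell there.

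The genes around Ccl22 carried 2 of these ligands. Within 250 kb of Ccl22 lie 15 other protein-coding genes, of which 7 were in the table and tested. Cx3cl1, the membrane-bound ligand of Cx3cr1, is the next gene on the chromosome and Ccl17 follows it. Cx3cl1 was at 0 in both naive libraries, and had 10.1 and 9.07 TPM in div12_48_d against 3.41 and 1.68 TPM in div12_48_u (1.62 ± 0.25, adjusted p = 0.00357). The 3 neighbours differed in level after the pulse, since div0 averaged 149 TPM of Ccl22, 1.76 TPM of Ccl17 and 1.67 TPM of Cx3cl1. Nlrc5, a regulator of MHC class I genes at the edge of this window, rose by 0.63 ± 0.11 in div12_48_d against div12_48_u (adjusted p = 0.00483). The tested genes of this window other than Ccl17, Cx3cl1 and Nlrc5 were not called there (limma adjusted p between 0.210 and 0.498). Of all genes, 12.2% were called higher and 13.4% lower in that comparison.

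Around the chromosome 11 genes, 17 other protein-coding genes lie within 250 kb and 4 were in the table, 3 of them tested. Between Ccl5 and Ccl3 lies Ccl9, whose difference in div12_48_d against div12_48_u was -0.37 ± 0.28 (adjusted p = 0.369), where Ccl3 and Ccl4 rose. Cx3cl1 and Nlrc5 were singled out as neighbours after their values were seen.

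RNA levels of genes of the pathways known to drive these chemokines were read from lists. The part of these genes in the chemokine changes was not tested. In div12_48_d against div12_48_u 12.2% of all genes were called higher and 13.4% lower. Of 23 tested genes of NF-kB and CD40 signalling, 0 rose and 11 fell there, with a median of -0.38 against -0.08 for all genes. Under median-ratio scaling 8 of them fell. Relb, an NF-kB subunit, fell by 0.66 ± 0.10 on the log2 scale (adjusted p = 0.00394), Cd40 itself by 0.68 ± 0.17 (adjusted p = 0.0208) and Traf1, a CD40 signalling adaptor, by 0.65 ± 0.13 (adjusted p = 0.00927). All 3 calls were lost when only the most abundant transcript was used (adjusted p of 0.0530, 0.353 and 0.0588), and those of Cd40 and Traf1 also without single Phase II libraries (adjusted p up to 0.134). Map3k14, the kinase of the alternative NF-kB pathway, fell by 0.61 ± 0.18 (adjusted p = 0.0444), a call lost in several fits and without single libraries (adjusted p up to 0.276).

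Against div12, the 2 Phase II groups gave different counts for the same list. In div12_48_d against div12 0 of 23 rose and 3 fell, beside 11.9% of all genes higher and 4.09% lower. The median was -0.01 against 0.08 for all genes. In div12_48_u against div12 13 rose and 1 fell, beside 27.7% of all genes higher and 13.6% lower. The median was 0.40 against 0.16 for all genes. The last comparison shares the div12_48_u libraries with that of div12_48_d against div12_48_u, so the opposite signs of the 2 are not independent. Rela, an NF-kB subunit, rose by 0.73 ± 0.15 (adjusted p = 0.00599) and Map3k14 by 0.91 ± 0.18 (adjusted p = 0.00542), whereas Cd40 was the 1 that fell (-0.60 ± 0.17, adjusted p = 0.0213). The Cd40 call was lost without either div12 library or the second div12_48_u library. Over all alternative fits its change lay between -1.04 and -0.41. Under median-ratio scaling 6 rose and 3 fell in div12_48_u. In div12 against div0 0 rose and 4 fell, beside 3.68% of all genes higher and 5.08% lower. The 4 were Map3k14, Rela, Relb and Traf3, and each of these calls was lost without at least 3 single libraries. In div0 against naive 7 rose and 8 fell as deposited, beside 15.4% of all genes higher and 39.6% lower. Under median-ratio scaling 8 rose and 6 fell. Traf1 rose there by 1.99 ± 0.13 (adjusted p = 1.93e-05).

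Of 32 tested transcription factors of B cell activation, 1 rose and 4 fell in div12_48_d against div12_48_u (12.2% and 13.4% of all genes). Batf, an AP-1 family factor, was the 1 that rose (0.95 ± 0.10, adjusted p = 7.39e-04), and it rose in div12 against div0 too (0.61 ± 0.10, adjusted p = 0.0153). Bcl6, a transcriptional repressor that germinal centre B cells require, fell by 1.41 ± 0.27 in div12_48_d against div12_48_u (adjusted p = 0.00824) and by 1.42 ± 0.27 in div12 against div0 (adjusted p = 0.0254). The Phase I call of Batf was lost without either div0 library or the second div12 library (adjusted p up to 0.171), that of Bcl6 without any one of the 4 libraries and with no filter (adjusted p up to 0.205), and the Phase II call of Bcl6 without the first library of either group (adjusted p up to 0.0727). In div0 against naive 1 of the 32 rose and 20 fell as deposited, with a median of -0.90 against -0.24 for all genes, of which 15.4% were called higher and 39.6% lower. There 6 rose and 15 fell under median-ratio scaling, and 5 rose and 14 fell under quantile normalization. Fos, an immediate early AP-1 gene, averaged 2.78 TPM in div0 and 1336 TPM in naive.

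Among 16 tested B cell cytokines, 7 rose and 1 fell in div12_48_d against div12_48_u, beside 12.2% of all genes higher and 13.4% lower. The median change was 0.49 against -0.08 for all genes. Tnfsf9, a costimulatory ligand of the TNF family, had 120 and 97.0 TPM in div12_48_d against 29.4 and 17.1 TPM in div12_48_u (2.22 ± 0.23, adjusted p = 8.53e-04). Tnfsf14, another TNF family ligand, had 64.0 and 45.5 TPM in div12_48_d against 14.7 and 10.3 TPM in div12_48_u (2.05 ± 0.30, adjusted p = 0.00294). In div0 against naive 6 rose and 6 fell as deposited, beside 15.4% of all genes higher and 39.6% lower. Under quantile normalization 7 rose and 2 fell, and the median turned from -0.37 to 0.35. Tnf rose there by 2.46 ± 0.28 (adjusted p = 2.67e-04). Of 13 activation markers, 2 rose and 2 fell in div12_48_d against div12_48_u, beside 12.2% of all genes higher and 13.4% lower. The adhesion receptor Cd44 (1.34 ± 0.15, adjusted p = 9.98e-04) was 1 of those that rose.

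RNA of macrophages, NK cells, neutrophils and erythroid cells was highest in naive libraries, where Ccl3, Ccl4 and Ccl5 were also high. Macrophage and monocyte markers (12 genes) summed to 805 and 2677 TPM in naive, 88.0 and 162 TPM in div0, 95.9 and 106 TPM in div12, 179 and 172 TPM in div12_48_u, and 256 and 326 TPM in div12_48_d. In the 4 activated groups 7 or 8 of the 12 were below 1 TPM in both libraries, C1qa was at 0, and Adgre1 or Cd68 was the highest. NK cell markers (6 genes) summed to 114 and 162 TPM in naive and to between 4.01 and 7.46 TPM in the other libraries, mostly Prf1, and Ncr1 was at 0 in both Phase II groups. Neutrophil markers (6 genes) summed to 200 and 491 TPM in naive and to at most 24.4 TPM elsewhere. Erythroid markers (5 genes) summed to 2679 and 3207 TPM in naive and to at most 44.6 TPM elsewhere.

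T cell markers did not set naive apart in the same way, since most of their sum was Lck, a kinase that some B cells also express. They (8 genes) summed to 183 and 201 TPM in naive, 142 and 146 TPM in div0, 162 and 177 TPM in div12, 380 and 434 TPM in div12_48_u, and 497 and 527 TPM in div12_48_d. Cd3e, a chain of the T cell receptor complex, had 10.3 and 10.2 TPM in naive and less than 0.35 TPM in every other library. Ccl5 was higher in the second naive library, as were the macrophage, NK and neutrophil sums, whereas Ccl3 and Ccl4 were higher in the first. The Egr, Fos and Jun family genes in the sum given for Ccl3 were 7, most of them immediate early genes. Of these 7, 6 were higher in the first naive library. The margin was widest for Egr1 (414 and 178 TPM), Egr2 (133 and 43.9 TPM) and Egr3 (625 and 221 TPM). It was small for Jun (447 and 422 TPM), and Jund had 1223 and 936 TPM. Fos, the remaining one and the most abundant in the second library, was higher there (970 and 1702 TPM). All 7 summed to 4349 and 3967 TPM in naive and to between 339 and 1724 TPM in the others. Jund gave 182 and 196 TPM of the 339 and 389 TPM in div12. The part of these cells and of these genes in the falls of Ccl3, Ccl4 and Ccl5 against naive was not tested.

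The rises of Phase II were set beside the same lists. Between div12_48_d and div12_48_u, macrophage markers were at 256 and 326 against 179 and 172 TPM, where Adgre1 was the most abundant, C1qa was at 0 in both groups and Lyz2 did not exceed 0.337 TPM in div12_48_d. NK cell markers were at 4.01 and 5.05 TPM in div12_48_d against 6.28 and 7.46 TPM in div12_48_u. Dendritic cell markers (8 genes), relevant because dendritic cells are a known source of Ccl22, were at 57.0 and 39.8 TPM in div12_48_d against 58.1 and 40.8 TPM in div12_48_u. In Phase I they were at 146 and 147 TPM in div12 against 77.6 and 94.0 TPM in div0, with Flt3 the most abundant in div12, and the part of this in the Ccl22 and Ccl3 levels was not tested.

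Other lists also moved with the Phase II rises. Plasma cell markers (6 genes) were at 972 and 1193 TPM in div12_48_d against 458 and 480 TPM in div12_48_u, led by Jchain in div12_48_d. The same list summed to 2041 and 874 TPM in naive, led by Irf4. It summed to 459 and 465 TPM in div0 and to 425 and 389 TPM in div12. Mast cell and basophil markers (3 genes) were at 24.8 and 23.0 TPM in div12_48_d against 6.16 and 5.71 TPM in div12_48_u, nearly all of it Kit, with Fcer1a at 0. Platelet markers (3 genes) were at 24.3 and 18.1 TPM in div12_48_d against 42.0 and 29.0 TPM in div12_48_u, mostly Itgb3. The part of these in the rises of Ccl3, Ccl4 and Ccl22, or in the naive levels of Ccl3 and Ccl4, was not tested.

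**Figure D5:**
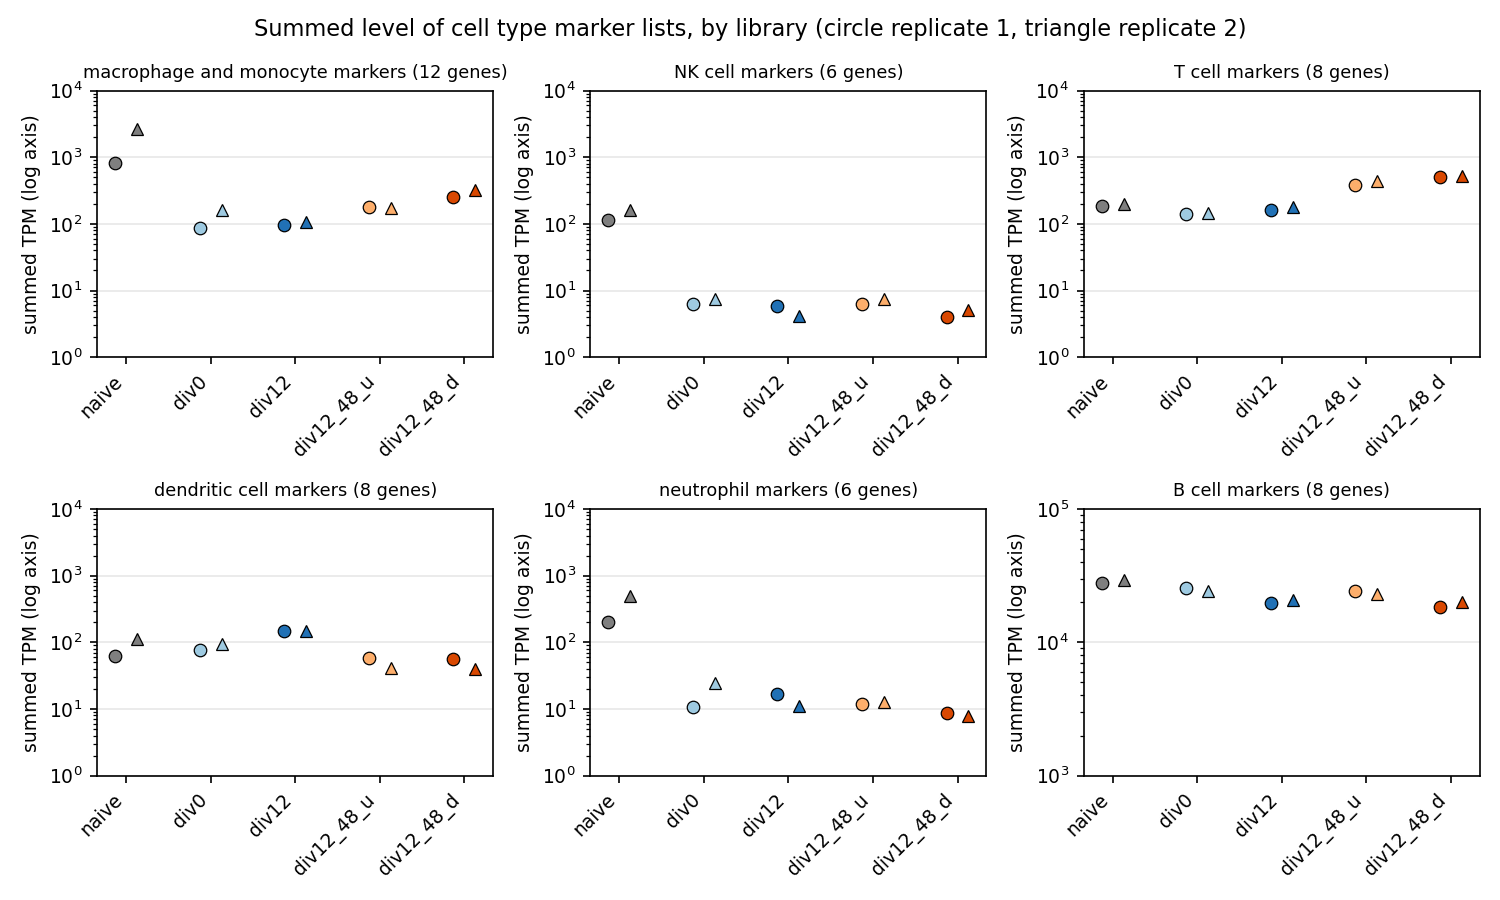
Summed TPM on a log axis of 6 marker lists in the 5 groups, with circles for replicate 1 and triangles for replicate 2. The macrophage, NK cell and neutrophil lists are highest in the naive libraries, and the T cell list is highest in Phase II libraries. The B cell list runs from 18272 to 29594 TPM and is highest in the naive libraries.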

How the data were processed

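The data are RNA-seq of 10 libraries of mouse splenic B cells. Per the labels' protocols, 100 ng of RNA per library was depleted of ribosomal RNA and read as single 50 bp ends on a NextSeq 500. HISAT2, Salmon, featureCounts, HTSeq, DESeq2 and the build mm10 are named in the submitters' processing notes, without roles or versions. The deposited values are TPM by transcript, as computed by the authors, and hold no counts, so no count model was used. Transcripts of 1 symbol were added up (13065 of 13128, since 63 had no usable symbol).

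Values were put on the log2(TPM + 1) scale and fitted in R 4.3.3 with limma 3.58.1, after a filter of 1 TPM in 2 libraries, with all libraries in the model, group as its only term, a mean-variance trend and a two-sided threshold of 0.05 (5 residual degrees of freedom). Phase II replicates are not said to be separate pools, so p-values there may measure technical spread. The 10 pairs of groups and the difference of the 2 division effects were tested.

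The 4 members, 7 pathway lists and 10 marker lists were chosen with earlier results of these data known. Genes named from a list were taken from its up to 4 called genes of largest change with 10 TPM or more in the higher group, plus every listed receptor of the 4 ligands. Some genes are not reported here. Positions are from GENCODE for GRCm38 and promoters from RefSeq GRCm38.p6. Alternatives were pseudocounts of 0.1 and 5, no filter or one of 5 TPM, median-ratio scaling, quantile normalization, a replicate block, no trend, the most abundant transcript, the compared groups alone, no naive group, and each library left out, where a lone library is assumed to vary as other groups do. Tables were made with pandas 2.3.3 and numpy 2.4.6 and drawn with matplotlib 3.10.9 in Python 3.11.15.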

Additional observations from a re-analysis of the deposited data

How the results depend on the processing

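The 4 genes gave 908 values over all comparisons and alternatives, of which 853 kept their direction and their side of the threshold, 29 lost a call, 18 gained one and 8 changed sign. The calls against naive held in every alternative for all 4 genes in div0, div12 and div12_48_u, and for Ccl5 and Ccl22 in div12_48_d. With 2 libraries a group, TPM without counts and 5 residual degrees of freedom, small changes cannot be told from spread, and the cause of the changes below was not tested. Replicate numbers are not said to pair samples, and the replicate 1 minus 2 differences of groups correlated between -0.238 and 0.199 over genes.

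Changes by setting were as follows. With no filter there were 162 calls in div12 against div0, where 388 were reported, and Ccl3 lost its calls there (adjusted p = 0.0534) and in div12_48_u against div12 (0.0682). The replicate block gave 247 calls in div12 against div0, 3 in the difference of division effects, and called Ccl5 in div12_48_d against div12_48_u (0.0256) and in div12_48_u against div12 (0.00889), and it changed no other call of the 4 genes. Calls of div12 against div0 numbered 183 with no trend, 223 with the most abundant transcript, 677 with the compared groups alone and 712 without the naive group. With the compared groups alone there were 1131 calls in div12_48_u against naive and 1192 in div12_48_u against div0, Ccl22 was called in div12 against div0 (0.0162), Ccl3 was not in div12_48_u against div12 (0.0533) and Ccl5 was (0.0112). Ccl5 was also called there with a pseudocount of 0.1 (0.0488), a filter at 5 TPM (0.0454) and without the naive group (0.0446). The difference of division effects, with 0 calls as reported, had 15 with a pseudocount of 5, 7 with a filter at 5 TPM, 23 with median-ratio scaling, 8 with quantile normalization, 2 with the most abundant transcript, and 35 with the compared groups alone and without the naive group. Signs turned for Ccl4 in div12_48_d against naive with median-ratio scaling (0.860) and quantile normalization (0.864), and with quantile normalization for Ccl5 in div12_48_d against div12 (0.910) and Xcr1 in div0 against naive (0.681).

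With single libraries left out, calls ranged from 1573 to 2384 in div0 against naive, 0 to 712 in div12 against div0, 335 to 1471 in div12_48_d against div12_48_u, 1212 to 2158 in div12_48_u against div12, 218 to 1006 in div12_48_d against div12, 86 to 1022 in div12_48_u against div0, 300 to 1071 in div12_48_d against div0, and 0 to 35 in the difference. Adjusted p in div12 against div0 ran from 0.0191 to 0.171 for Ccl3 and from 0.00950 to 0.147 for Ccl5. In div12_48_d against div12_48_u it ran from 7.37e-04 to 0.0567 for Ccl4, 0.0283 to 0.588 for Ccl5 and 0.00620 to 0.0572 for Ccl22. In div12_48_u against div12 it ran from 0.00625 to 0.173 for Ccl3, 0.421 to 0.903 for Ccl4, 0.0231 to 0.206 for Ccl5 and 0.0116 to 0.125 for Ccl22. In div12_48_d against div12 it ran from 0.00688 to 0.108 for Ccl3, 4.28e-04 to 0.0585 for Ccl4, 0.238 to 0.989 for Ccl5 and 0.147 to 0.956 for Ccr1. It ran from 0.0313 to 0.958 for Ccl4 in div12_48_d against naive and from 0.316 to 0.966 for Ccl22 in div12_48_u against div0. For Ackr2 it ran from 0.253 to 0.999 in div12 against naive, and for Ccr4 it ran from 0.834 to 1 in div12 against div0.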
